A study of Mus musculus with 11 samples.

Results

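The terminal complement genes and their inhibitors were examined as a set of 9 genes chosen by name from 54232 Ensembl genes counted in hepatocyte RNA-seq. The set holds *Hc* (encoding complement component C5), *C6*, *C8a*, *C8b*, *C8g* and *C9*, with the inhibitors *Clu* (clusterin), *Vtn* (vitronectin) and *Cd59a*. All 9 were found in each of 11 libraries and all passed the filter on low counts. Hepatocytes were isolated from adult male C57BL/6 mice, purified on Percoll, and their RNA was sequenced in single-end reads. There were 3 libraries from chow-fed Xbp1fl/fl controls, 2 from chow-fed Xbp1LKO mice, 3 from Xbp1fl/fl mice on the high fat sugar (HFS) diet and 3 from Xbp1LKO mice on that diet. The floxed *Xbp1* alleles were common to all mice, and Xbp1LKO mice also carried Cre under the albumin promoter, so that deletion was directed to hepatocytes. Chow libraries held 1 mouse each, whereas the HFS libraries were pools of 2 mice, and the diets were given for at most 6 weeks.

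The terminal pathway of complement begins when a convertase cuts C5. The fragment C5b then binds C6, C7, C8 and several copies of C9 to form the membrane attack complex, a pore in the target membrane. C8 is itself assembled from α, β and γ chains made by separate genes. Hepatocytes secrete most of these proteins into plasma. Clusterin and vitronectin hold the forming complex in solution, and CD59, anchored on the cell surface, blocks the addition of C9. XBP1 is the transcription factor of the IRE1α branch of the unfolded protein response, which in hepatocytes serves the secretory pathway.

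RefSeq promoter windows of GRCm38.p6, from 250 bases before to 50 bases after the transcription start, were given for 8 of the 9 genes. The HNF1 half-site GTTAAT, searched on both strands, was present in the windows of 4 of these 8 genes, against 7.10% of 32851 windows of the same length. The 32851 windows were not limited to genes that hepatocytes express, and a difference from such genes was not tested. The members were counted by gene, and *C8g* had windows at separate starts, whereas the share is of windows. The 4 stretches from 250 to 51 bases before the start are shown for these shared letters. Capitals mark the half-site, which reads ATTAAC where it lies on the other strand.
*Hc*, chr2:35061463-35061662, minus strand: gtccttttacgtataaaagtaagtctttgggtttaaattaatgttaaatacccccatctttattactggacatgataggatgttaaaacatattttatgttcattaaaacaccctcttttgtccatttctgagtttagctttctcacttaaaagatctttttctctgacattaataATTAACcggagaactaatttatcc
*C8a*, chr4:104876449-104876648, minus strand: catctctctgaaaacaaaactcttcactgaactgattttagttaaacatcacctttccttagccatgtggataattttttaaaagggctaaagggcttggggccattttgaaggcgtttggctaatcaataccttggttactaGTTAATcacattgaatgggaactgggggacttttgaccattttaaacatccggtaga
*C8b*, chr4:104766067-104766266, plus strand: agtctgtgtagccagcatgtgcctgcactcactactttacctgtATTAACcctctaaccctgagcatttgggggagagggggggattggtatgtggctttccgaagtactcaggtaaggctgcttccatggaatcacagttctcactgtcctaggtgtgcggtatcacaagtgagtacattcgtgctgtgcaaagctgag
*Vtn*, chr11:78498870-78499069, plus strand: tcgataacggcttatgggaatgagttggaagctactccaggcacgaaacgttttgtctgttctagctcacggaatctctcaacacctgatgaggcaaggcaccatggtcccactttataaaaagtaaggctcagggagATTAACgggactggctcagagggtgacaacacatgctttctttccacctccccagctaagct

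Counted from the transcription start, the half-site began at -74 in *Hc*, -107 in *C8a*, -206 in *C8b* and -112 in *Vtn*. The ER stress response element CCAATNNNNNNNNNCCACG, the best known binding sequence of the unfolded protein response, was not found in the 8 genes' windows and was present in 0.119% of all windows. ACGTGG, the core of another such element, was likewise not found, against 8.31% of all windows. The shorter CCACG, which is part of the first element and of the reverse complement of the second, was found in the window of *Cd59a* alone, against 32.8% of all windows. These matches describe letters in a window and were not tested against binding.

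Library totals were 19191032 to 23888401 counts. The 9 genes together took 0.848% to 1.26% of them in Xbp1fl/fl libraries and 0.633% to 0.716% in Xbp1LKO libraries. Whole-gene *Xbp1* fell in Xbp1LKO hepatocytes by 0.87 on the log2 scale on chow (edgeR adjusted p = 0.018) and by 1.26 on the HFS diet (edgeR adjusted p = 0.0025); such counts also include transcript outside the deleted segment. Albumin RNA took 1.67% to 10.9% of the counts. Of 24 hepatocyte marker genes, 21 had a negative log2 fold change on each diet, with 3 called lower on chow and 1 on the HFS diet. Their summed level was 181189 to 215903 CPM in chow-fed Xbp1fl/fl libraries and 75313 and 112762 CPM in the chow-fed Xbp1LKO libraries. On the HFS diet the sum was 164014 to 182986 CPM against 93873 to 130392 CPM. Albumin, itself on this list, made up 86732 to 119367 CPM against 14021 and 34259 CPM of the sums on chow. Its HFS values were 64343 to 82040 CPM against 29578 to 51478 CPM. No macrophage marker of 18, endothelial marker of 16 or stellate cell marker of 12 tested was called in either genotype comparison. On chow, summed levels in Xbp1fl/fl and Xbp1LKO libraries were 65.7 to 165 against 40.1 and 51.7 CPM for endothelial, 15.1 to 47.0 against 10.2 and 10.7 CPM for stellate, and 24.97 to 108 against 28.8 and 43.5 CPM for macrophage markers. With the HFS diet the sums were 127 to 217 against 105 to 183 CPM, 25.9 to 45.4 against 32.4 to 67.0 CPM, and 47.9 to 67.1 against 67.7 to 117 CPM in the same order. The endothelial and stellate sums were thus wholly lower in chow-fed Xbp1LKO libraries, and the hepatocyte sum was wholly lower on both diets. The macrophage sum was wholly higher in HFS-fed Xbp1LKO libraries, by a narrow margin of 67.7 against 67.1 CPM at the nearest. Of single genes, 15.9% were wholly lower on chow and 13.6% wholly higher on the HFS diet. Of 6 cholangiocyte markers tested, 2 were called lower on chow, and 1 lower and 1 higher on the HFS diet. Their sums were wholly lower on chow, at 29.7 to 35.5 against 23.6 and 27.2 CPM. They overlapped on the HFS diet, at 22.1 to 41.4 against 31.3 to 38.9 CPM. *Krt19*, a defining cholangiocyte marker, had 0 to 4 counts in every library. Of 11 lymphocyte and 8 neutrophil markers, 2 and 3 were tested, and none was called in a genotype comparison. The lymphocyte sum was low but wholly higher in chow-fed Xbp1LKO libraries (1.96 and 2.14 against 0.946 to 1.71 CPM), as were 15.4% of single genes. It overlapped on the HFS diet, and the neutrophil sum overlapped on both diets. The part of these markers in the results that follow was not tested, and fewer cells of a type and less RNA per cell cannot be told apart in bulk RNA.

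Loss of hepatocyte *Xbp1* went with lower RNA of C5, of the C8 α chain and of clusterin on both diets. On chow, *Hc*, *C8a*, *C9* and *Clu* were called lower, and on the HFS diet *Hc*, *C8a*, *C8b* and *Clu* were. *C9* on the HFS diet was at -0.93 on the log2 scale without a call (edgeR adjusted p = 0.054). *C8b* there was at -0.89 (edgeR adjusted p = 0.040), a call kept in 10 of 19 alternative analyses. No member was called higher in either comparison, where 1.73% and 1.92% of all genes were. At such shares, 0 of 9 says little about the members. *C6* on chow (log2 fold change 0.58) and *Cd59a* on the HFS diet (0.17) were wholly higher in Xbp1LKO libraries without a call. The calls are from the quasi-likelihood F test of edgeR on 13303 genes at a threshold of 0.05, with p-values adjusted by the Benjamini-Hochberg method and termed edgeR adjusted p. The 4 of 9 members called lower on chow stand beside 3.02% of all genes tested, and the 4 of 9 on the HFS diet beside 2.16%. The 3 members called lower on both diets stand beside 1.37% of all genes. Members were chosen with earlier results of these data known, and the shares cover tested genes of all levels. Such contrasts, here and below, are therefore descriptions and not tests. The comparisons on the 2 diets share no library, although 1 fit gave them a common estimate of the spread.

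*Hc* (ENSMUSG00000026874, chr2:34983331-35061438 of GRCm38, minus strand) encodes C5, the protein cut to start the terminal pathway. It stood at 1673, 1828 and 1439.9 CPM (the count relative to the TMM-scaled size of its library) in the chow-fed Xbp1fl/fl libraries and at 258 and 347 CPM in the chow-fed Xbp1LKO libraries. After HFS feeding its level was 1311, 2304 and 1229 CPM in Xbp1fl/fl and 335, 204 and 362 CPM in Xbp1LKO hepatocytes. Each of the 5 Xbp1LKO libraries lay far below each of the 6 Xbp1fl/fl libraries. *Hc* was 5.45-fold lower on chow (log2 fold change -2.45, standard error 0.33, edgeR adjusted p = 0.0042). In HFS-fed mice it was 5.38-fold lower (log2 fold change -2.43, standard error 0.28, edgeR adjusted p = 0.0023). An antisense gene, *Gm13449*, shares 76 exonic bases with *Hc* and had 5 to 15 counts per library, against at least 5489 for *Hc*.

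*C6* (chr15:4727175-4814967, plus strand) encodes the first component to bind C5b, and it was not called on either diet. Chow-fed Xbp1fl/fl libraries had 293, 215 and 372 CPM and chow-fed Xbp1LKO libraries 388 and 487 CPM. The ranges were apart by a small margin, with the Xbp1LKO libraries higher. The log2 fold change of 0.58 (95% interval -0.07 to 1.22) was not called (edgeR adjusted p = 0.32), but it was called when counts were scaled by library totals (0.91, edgeR adjusted p = 0.047) or left unfiltered (0.60, edgeR adjusted p = 0.038). HFS-fed mice had *C6* at 592, 614 and 325 CPM in Xbp1fl/fl and 593, 455 and 391 CPM in Xbp1LKO libraries. These ranges overlapped, with a log2 fold change of -0.09 (95% interval -0.67 to 0.49, edgeR adjusted p = 0.92), whose sign was positive in 4 of 19 alternative analyses. *C7*, the next component to bind, had at most 3 counts in any library and was not tested.

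**Figure D1:**
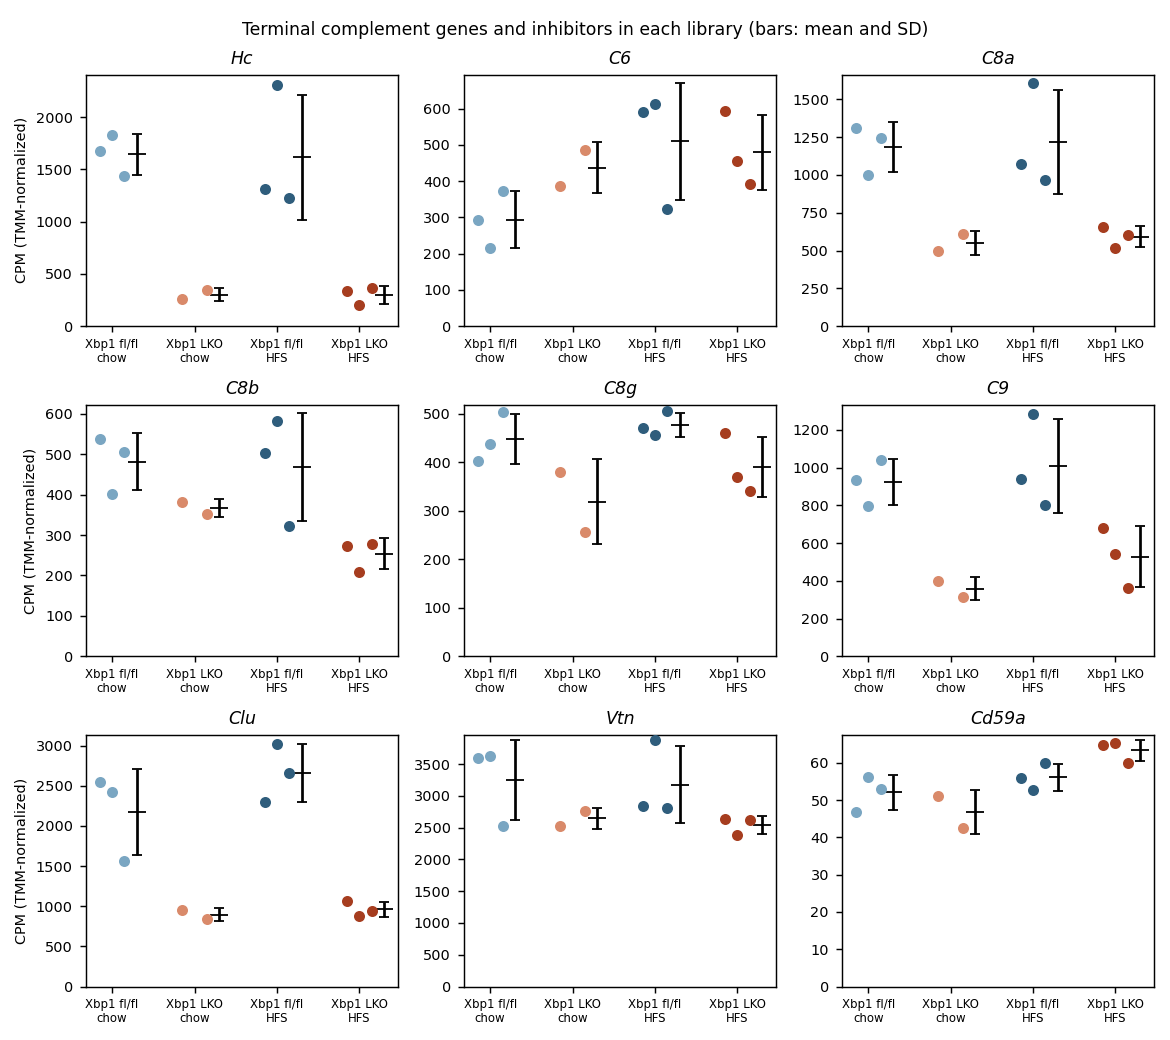
TMM-normalized CPM of each gene in every library, on linear axes from 0, with 1 point per library and a bar for the mean and standard deviation of each group. *Hc*, *C8a*, *C9* and *Clu* had all 5 Xbp1LKO libraries below all 6 Xbp1fl/fl libraries, while *C6*, *C8b*, *C8g*, *Vtn* and *Cd59a* did not.

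The genes of the 3 C8 chains differed in their calls, which does not itself show that their changes differed. The α chain gene *C8a* (chr4:104815679-104876398, minus strand) had 1313, 1001 and 1246 CPM in chow-fed Xbp1fl/fl libraries and 496.5 and 607 CPM in chow-fed Xbp1LKO libraries. HFS-fed libraries had 1071, 1608 and 968 CPM in Xbp1fl/fl and 658, 518 and 600.1 CPM in Xbp1LKO mice. All Xbp1LKO libraries were again below all Xbp1fl/fl libraries. *C8a* was 2.15-fold lower on chow (log2 fold change -1.10, standard error 0.23, edgeR adjusted p = 0.022) and 2.05-fold lower on the HFS diet (log2 fold change -1.04, standard error 0.20, edgeR adjusted p = 0.017). The chow call was lost without Xbp1fl/fl replicate 1 (edgeR adjusted p = 0.053), Xbp1LKO replicate 1 (0.093) or Xbp1LKO replicate 2 (0.10), in the fit of the chow groups alone (0.058) and with a replicate block numbered by the file names (0.056). The HFS call was lost without Xbp1LKO replicate 2 (edgeR adjusted p = 0.091) or 3 (0.059).

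*C8b*, the β chain gene that receives the C5b-7 complex, lies next to *C8a* (chr4:104766317-104804548, plus strand), and the ends of the neighbouring genes face each other across 11130 bases. On chow it had 538, 402 and 504 CPM in Xbp1fl/fl and 382 and 351 CPM in Xbp1LKO libraries. With the HFS diet the values were 504, 582 and 321 CPM against 274, 209 and 277 CPM. Xbp1LKO libraries were below Xbp1fl/fl libraries within each diet, but the chow-fed Xbp1LKO libraries exceeded the lowest HFS-fed Xbp1fl/fl library. *C8b* was 1.85-fold lower on the HFS diet (log2 fold change -0.89, standard error 0.21, edgeR adjusted p = 0.040), and on chow the log2 fold change of -0.39 was not called (95% interval -0.91 to 0.12, edgeR adjusted p = 0.40). The HFS call was lost in 9 of 19 alternatives, among them those without Xbp1fl/fl replicate 1 (edgeR adjusted p = 0.13) or 2 (0.13) and without Xbp1LKO replicate 1 (0.067), 2 (0.17) or 3 (0.089).

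*C8g* (chr2:25498651-25501719, minus strand) encodes the γ chain, a lipocalin. Its levels on chow were 402, 438 and 504 CPM in Xbp1fl/fl and 380.2 and 257 CPM in Xbp1LKO libraries. After HFS feeding Xbp1fl/fl libraries had 471, 456 and 505 CPM, and Xbp1LKO libraries 460.2, 370.1 and 340.2 CPM. The ranges were narrowly apart on chow and overlapped on the HFS diet. Neither log2 fold change was called: it was -0.49 on chow (95% interval -0.91 to -0.07, edgeR adjusted p = 0.18) and -0.29 on the HFS diet (95% interval -0.66 to 0.08, edgeR adjusted p = 0.43). *Fbxw5* overlaps *C8g* on the other strand but shares no exonic base with it.

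*C9* (chr15:6445327-6498751, plus strand) encodes the subunit that forms the wall of the pore. It was measured at 933, 798 and 1041 CPM in chow-fed Xbp1fl/fl and 401 and 317 CPM in chow-fed Xbp1LKO libraries. The HFS-fed libraries had 939, 1284 and 802 CPM in Xbp1fl/fl and 682, 539.7 and 363 CPM in Xbp1LKO mice. Every Xbp1LKO library was below every Xbp1fl/fl library. *C9* was 2.58-fold lower on chow (log2 fold change -1.36, standard error 0.28, edgeR adjusted p = 0.019), a call lost without Xbp1LKO replicate 2 (edgeR adjusted p = 0.20). Its log2 fold change of -0.93 on the HFS diet (95% interval -1.46 to -0.41) was not called (edgeR adjusted p = 0.054), and it was called without Xbp1LKO replicate 1 (edgeR adjusted p = 0.033), with no filter on low counts (2.9e-05) and by DESeq2 (adjusted p = 0.0026).

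Of the plasma inhibitors, clusterin RNA was called lower on both diets and vitronectin RNA was not called on either. *Clu* (chr14:65968483-65981547, plus strand) had 2546, 2428 and 1564 CPM in chow-fed Xbp1fl/fl libraries and 954 and 839 CPM in chow-fed Xbp1LKO libraries. Its HFS values were 2299.9, 3023 and 2656 CPM in Xbp1fl/fl and 1064, 879.5 and 944 CPM in Xbp1LKO libraries. The genotypes did not overlap on either diet. *Clu* was 2.43-fold lower on chow (log2 fold change -1.28, standard error 0.22, edgeR adjusted p = 0.0098) and 2.76-fold lower on the HFS diet (log2 fold change -1.47, standard error 0.20, edgeR adjusted p = 0.0031). The chow call was lost without Xbp1LKO replicate 2 (edgeR adjusted p = 0.10) and in the fit of the chow groups alone (0.070).

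*Vtn* (chr11:78499091-78502324, plus strand) was the member with the most counts, at 3603, 3632 and 2528 CPM in chow-fed Xbp1fl/fl and 2532 and 2758 CPM in chow-fed Xbp1LKO libraries. HFS-fed libraries had 2846, 3875 and 2813 CPM in Xbp1fl/fl and 2632, 2383 and 2625 CPM in Xbp1LKO mice. On chow the ranges overlapped through 1 low Xbp1fl/fl library, and on the HFS diet they were apart. Neither difference was called, with log2 fold changes of -0.30 on chow (95% interval -0.75 to 0.15, edgeR adjusted p = 0.47, and 0.03 with library totals) and -0.32 on the HFS diet (95% interval -0.72 to 0.08, edgeR adjusted p = 0.42). A 2-fold loss lies outside both intervals.

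*Cd59a* (chr2:104095801-104115354, plus strand) encodes the inhibitor held on the cell's own membrane. It was far less abundant than the secreted members, with 46.9, 56.1 and 53.1 CPM in chow-fed Xbp1fl/fl and 51.0 and 42.6 CPM in chow-fed Xbp1LKO libraries. Its HFS values were 55.8, 52.7 and 59.9 CPM in Xbp1fl/fl libraries and, in Xbp1LKO libraries, 64.8, 65.2 and 60.0 CPM. The ranges overlapped on chow, and on the HFS diet the Xbp1LKO libraries were higher by a narrow margin. The log2 fold change was -0.15 on chow (95% interval -0.41 to 0.11, edgeR adjusted p = 0.54, and 0.17 with library totals) and 0.17 on the HFS diet (95% interval -0.06 to 0.41, edgeR adjusted p = 0.45), where scaling by library totals gave 0.43 and a call (edgeR adjusted p = 0.022). Its paralogue *Cd59b*, whose similar sequence can divide reads with it, averaged 2.81 CPM over all libraries and was not called.

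**Figure D2:**
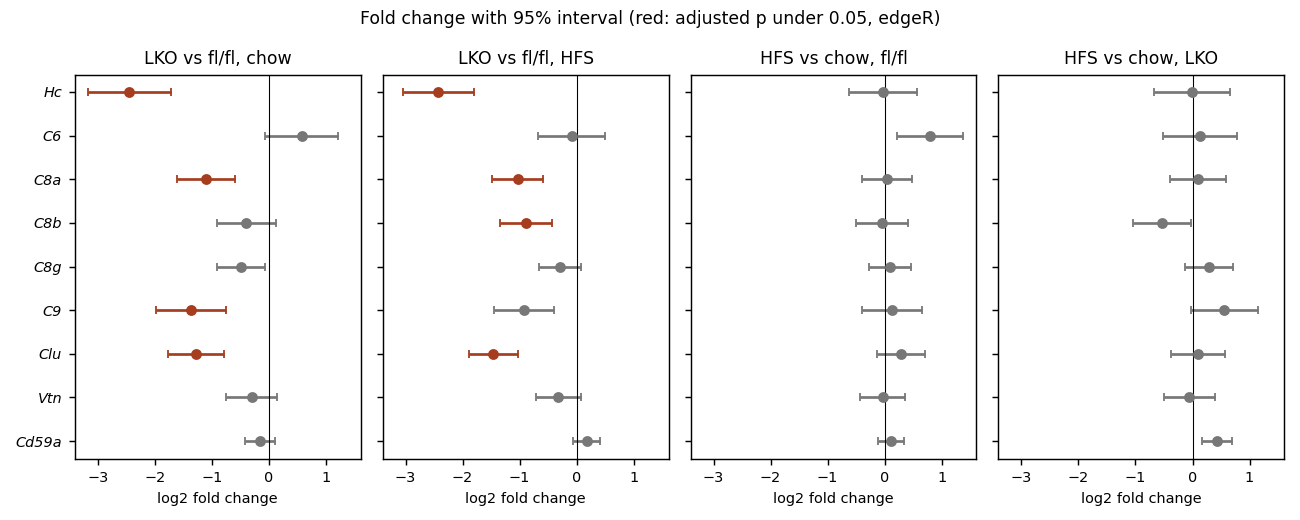
Log2 fold change of each gene with its 95% interval in the genotype comparison on each diet and the diet comparison in each genotype, red where the edgeR adjusted p was under 0.05. *Hc* lay near -2.4 in both genotype comparisons, and no member was called in the diet comparisons.

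Across the members, 6 of 9 had Xbp1LKO libraries wholly below Xbp1fl/fl libraries on chow, beside 15.9% of all genes, and 6 of 9 on the HFS diet, beside 12.5%. *C6* on chow and *Cd59a* on the HFS diet were wholly higher in Xbp1LKO libraries, beside 15.4% and 13.6%. Over both diets together, *Hc*, *C8a*, *C9* and *Clu* had every Xbp1LKO library below every Xbp1fl/fl library, beside 4.34% of all genes. Averaged over the diets, 5 of 9 members were called lower, beside 6.64% of all genes. They were *Hc* (log2 fold change -2.44), *Clu* (-1.37), *C9* (-1.15), *C8a* (-1.07) and *C8b* (-0.64). The averaged call of *C8b* was lost with library totals (-0.35, edgeR adjusted p = 0.088) and without chow-fed Xbp1LKO replicate 2 (0.099), HFS-fed Xbp1fl/fl replicate 1 (0.051) or HFS-fed Xbp1LKO replicate 2 (0.058). With library totals *C6* (0.53, edgeR adjusted p = 0.049) and *Cd59a* (0.30, edgeR adjusted p = 0.0091) were called higher. *C8g* was at -0.39 in that average (edgeR adjusted p = 0.073), and was called without chow-fed Xbp1LKO replicate 1 (edgeR adjusted p = 0.019) or HFS-fed Xbp1LKO replicate 1 (0.045), unfiltered (0.045) and by DESeq2 (adjusted p = 0.024). In each genotype comparison 8 of 9 members had a negative log2 fold change, and with library totals, which raised the median of all genes to 0.33 on chow and 0.27 on the HFS diet, 6 and 7 did. Relative to that raised median, *Hc* was at -2.43 on chow and -2.44 on the HFS diet, and *Clu* at -1.29 and -1.48.

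The HFS diet itself was not accompanied by a called change in any member. In Xbp1fl/fl hepatocytes 0 of 9 were called by edgeR (0.428% of all genes), 1 had an unadjusted p under 0.05 and DESeq2 called 0. That 1 was *C6*, whose log2 fold change of 0.80 (95% interval 0.21 to 1.38, edgeR adjusted p = 0.36) came with overlapping ranges, and which was called with no filter on low counts (0.80, edgeR adjusted p = 9.2e-04). *Hc* was at -0.03 (95% interval -0.62 to 0.56), *Clu* at 0.29 (-0.13 to 0.71) and *C9* at 0.13 (-0.40 to 0.65).

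In Xbp1LKO hepatocytes the diet comparison called 0 of 9 members by edgeR (0.0601% of all genes) and 0 by DESeq2, with 2 at an unadjusted p under 0.05. *Cd59a* had the smallest p, with each HFS-fed library above both chow-fed libraries (log2 fold change 0.44, 95% interval 0.17 to 0.70, edgeR adjusted p = 0.22). *C8b* had each HFS-fed library below both chow-fed libraries (-0.53, 95% interval -1.04 to -0.03, edgeR adjusted p = 0.37). Groups were also apart in these directions for 16.7% and 14.4% of all genes. *C9* was at 0.56 (95% interval -0.03 to 1.15, edgeR adjusted p = 0.42), and *Hc* at -0.01 (-0.67 to 0.65). The genotype effect itself did not pass a test of difference between the diets for any member: edgeR called 0 of 9 (0% of all genes), 0 had an unadjusted p under 0.05, and DESeq2 called 0. The interaction was 0.02 for *Hc* (95% interval -0.87 to 0.91), 0.43 for *C9* (-0.35 to 1.22) and -0.50 for *C8b* (-1.18 to 0.19) on the log2 scale, so that the calls of *C9* on 1 diet and *C8b* on the other were not shown to differ.

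Levels were then set side by side per length, as CPM per kilobase of the gene's merged exons, averaged by group. In chow-fed Xbp1fl/fl hepatocytes the order was *Vtn* (1603 CPM per kb), *Clu* (634), *C9* (361), *C8a* (326), *C8g* (299.98), *Hc* (263), *C8b* (189), *C6* (82.6) and *Cd59a* (28.7). From *C9* to *Hc*, each gene's range of libraries overlapped that of the next in the order, while *C9* (312 to 407 CPM per kb) and *Hc* (229.8 to 292) were apart. The order depended in part on the length used. With the longest transcript, *C8g* (389) stood above *C8a* (328) in this group, and *C9* moved from rank 6 to rank 4 in chow-fed Xbp1LKO hepatocytes. In chow-fed Xbp1LKO hepatocytes *Vtn* (1303 CPM per kb) and *Clu* (261) still led, and *Hc* (48.3) stood next to last, below *C6* (123). *Hc* exceeded *C6* per kilobase in 6 of 6 Xbp1fl/fl libraries and in 0 of 5 Xbp1LKO libraries, also when the longest transcript gave the length. *C8g*, *C8a*, *C8b*, *C9* and *C6* lay between 123 and 213 CPM per kb in chow-fed Xbp1LKO hepatocytes and between 99.5 and 261 CPM per kb in HFS-fed ones.

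**Figure D3:**
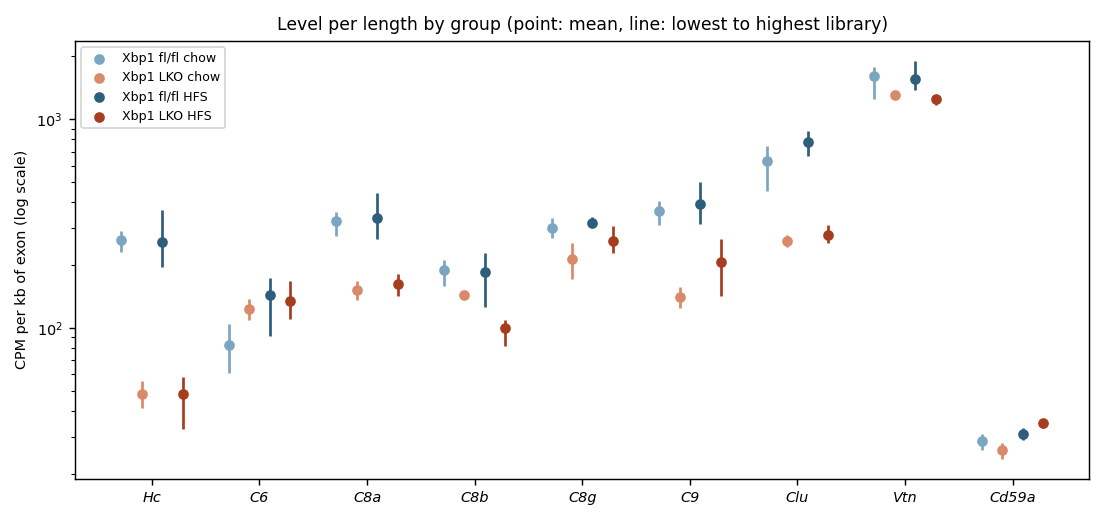
CPM per kilobase of exon by gene and group on a log axis, with the group mean as a point and the lowest to highest library as a line. *Hc* moved from 263 to 48.3 CPM per kb on chow, crossing *C6*, while *Vtn* stayed highest and *Cd59a* lowest in all 4 groups.

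Ratios of members within a library do not depend on the scaling of libraries. The ratio of *Clu* to *Vtn* per kilobase was 0.365 to 0.417 in chow-fed and 0.461 to 0.558 in HFS-fed Xbp1fl/fl libraries. It was 0.180 and 0.223 in chow-fed and 0.212 to 0.239 in HFS-fed Xbp1LKO libraries, without overlap. The ratio of *C8a* to *C8b* was 1.71 to 1.74 in chow-fed Xbp1fl/fl libraries against 0.909 and 1.21 in chow-fed Xbp1LKO libraries, and overlapped on the HFS diet. *C9* per *Hc* was higher in Xbp1LKO libraries, at 2.23 and 3.82 against 1.07 to 1.77 on chow and at 2.45 to 6.48 against 1.37 to 1.75 on the HFS diet. *C9* per *C6* was lower in Xbp1LKO libraries, at 0.904 and 1.44 against 3.89 to 5.15 on chow and at 1.29 to 1.65 against 2.21 to 3.44 on the HFS diet. *C9* per *C8b* was 0.897 and 1.04 against 1.73 to 2.05 on chow and overlapped on the HFS diet, and *C8g* per *C8b* overlapped on both. The 8 separations had an exact permutation p of 0.10 (two-sided, 0.15 adjusted over 12 tests of ratios), the smallest these group sizes allow, so that this test could not reach 0.05.

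Genes of the rest of the cascade were set beside the members. Of 22 genes of the classical, lectin and alternative pathways, 19 were tested, and their median log2 fold change was -0.50 on chow and -0.30 on the HFS diet, beside 0.00 and 0.01 over all genes. On chow 4 were called lower and none higher. They were *C1rl* (-0.87), a C1r-like protease, the collectin *Colec10* (-2.53), the lectin pathway protease *Masp2* (-0.59) and the mannose-binding lectin *Mbl2* (-0.74). *Mbl2* was named after its value was seen. *Colec10* was at a low level, with a mean of 2.64 CPM in chow-fed Xbp1fl/fl libraries and at most 91 counts in any library. On the HFS diet 2 were called lower, *Masp2* (-0.76) and *C1rl* (-0.68), while *C4b* was at -0.95 (edgeR adjusted p = 0.11), with reads that may be divided with its near copy *C4a*. The members' own medians were -0.49 and -0.89. The early list mixes high and low levels, and on the HFS diet 12 of its genes were negative and 7 positive. Among the 7 were *C1qa* (0.71), *C1qb* (0.73) and *C1qc* (0.60), which averaged 4.07, 4.06 and 3.99 CPM over all libraries. None of these was called, and a difference between the medians of the lists was not tested.

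Of 18 other regulators and receptors, 16 were tested, with medians of -0.54 on chow and -0.16 on the HFS diet. On the HFS diet 9 were negative and 7 positive. Among the 7 were *C3ar1*, *Cd46*, *Vsig4* and *Cfp*, which averaged 0.318, 0.896, 2.61 and 3.93 CPM over all libraries and were not called. On chow 3 were called lower: *Cpb2* (-1.11), a carboxypeptidase that inactivates C5a and C3a, *Cfi* (-0.89), the protease that degrades C3b, and the factor H related *Cfhr2* (-0.78). On the HFS diet *Cpb2* (-0.98) and *Cpn2* (-0.89), a subunit of carboxypeptidase N, were called lower, and *Cfi* was at -0.49 (edgeR adjusted p = 0.10). Of the receptors of C5a, *C5ar1* had at most 6 counts and was not tested, and *C5ar2* was not called. Coagulation genes, another set of hepatocyte plasma proteins, had medians of -0.61 and -0.62 with 6 and 7 of 22 called lower, and *Proc*, *F7* and *F2* had the smallest p on both diets.

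**Figure D4:**
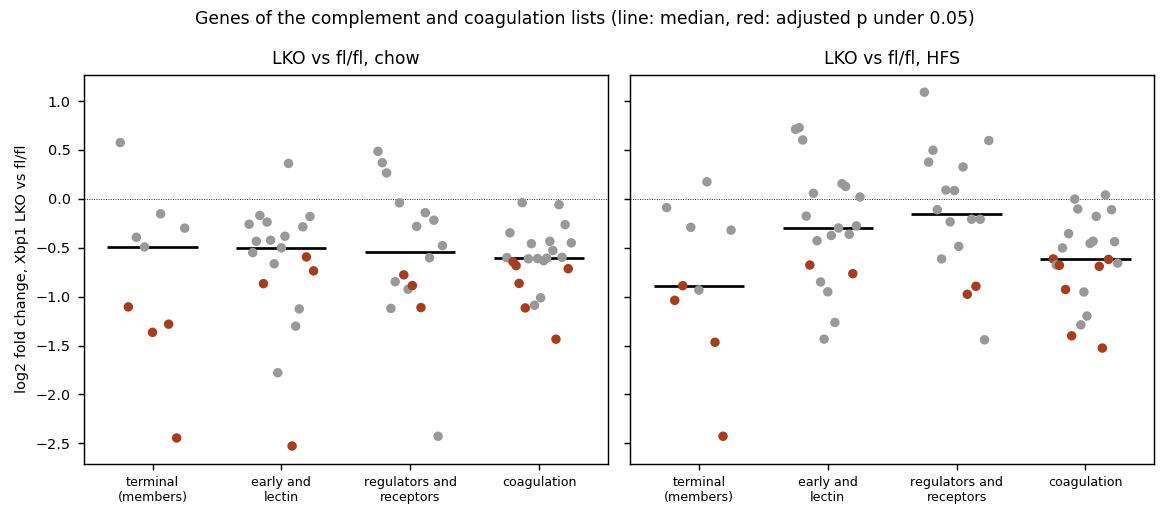
Log2 fold change, Xbp1LKO against Xbp1fl/fl, of each tested gene of the 9 members, the early and lectin pathway genes, the regulators and receptors and the coagulation genes, with a line at each list's median and red for an edgeR adjusted p under 0.05. The members' medians were -0.49 on chow and -0.89 on the HFS diet, and *Hc* was lowest of the members in both panels.

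The genes whose levels ran most like each member called on both diets were found by the root mean square difference of mean-centred log2 CPM over the 11 libraries. For *Hc* they were *Tmem238* (0.32), *Retreg3* (0.33) and *Gmds* (0.40), against a root mean square of 1.25 for *Hc* about its own mean. *Cpb2* (0.12), *Cdk5rap3* (0.19) and *Tmem208* (0.20) were nearest to *C8a*, whose own value was 0.56. *F7* (0.12), *Pxmp2* (0.14) and *Apon* (0.14) were nearest to *Clu*, whose own value was 0.71. All 9 of these genes were themselves called lower on both diets, as a gene that runs like a called one is likely to be.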

How the data were processed

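RNA-seq of isolated mouse hepatocytes was analysed in 11 libraries, grouped by the sample labels. The authors deposited whole-number counts per Ensembl gene, neither normalized nor filtered. The paper describes kallisto and tximport, whereas the submitters' processing notes list cutadapt 1.13, STAR, HTSeq 0.6.1p1 and mm10; which route made the counts is not given in the sources used here, nor is whether strand was used. The paper names a stranded mRNA kit and the labels a total RNA kit. Here 54165 of 54232 identifiers were matched to GENCODE M21.

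TMM factors were computed with edgeR 4.0.16 (R 4.3.3). The filter filterByExpr, at a minimum count of 10, kept 13303 genes. All 11 libraries entered 1 quasi-likelihood fit with a mean for each of the 4 groups, and p-values were adjusted by the Benjamini-Hochberg method and called at 0.05. Library pairs within a group had a chi-square of 25.4 to 91.5 per degree of freedom, far above counting error, so intervals come from the fit. Chow libraries are single mice and HFS libraries pools of 2, so the spread is between animals on chow and between pools on the HFS diet. Alternatives were DESeq2 1.42.0, RLE factors, library totals, other filters, replicate blocks, only the groups compared, and each library left out. The script was tested on simulated data.

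Genes named are the 9 members, *Xbp1*, albumin, the 3 genes of smallest p per other list and diet, and the 3 nearest to each member called on both diets by log2 CPM (prior count 2). *Krt19* is named as a marker, and *Gm13449* and *Fbxw5* as genes that overlap members. Other genes of low level in the complement lists were named after their values were seen. Members and lists were chosen with earlier results of these data known, and ratios after levels were seen.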

Additional observations from a re-analysis of the deposited data

How the results depend on the processing

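Each member's 6 tests were recomputed under up to 19 alternatives. No called difference changed sign, and 36 of 1008 recomputed tests changed their side of the threshold, 23 to not called and 13 to called. *Hc* on both diets and *Clu* on the HFS diet were called under all 19. On chow the number of members called was 2 instead of 4 with only the groups compared, and 1 to 4 with 1 library left out, the 1 being *Hc* without Xbp1LKO replicate 2. On the HFS diet it was 2 to 4 with 1 library left out, and in the average over diets 4 to 6, all lower. With library totals 6 were called in that average, 4 lower and 2 higher. For the diet comparison in Xbp1fl/fl it was 1 (*C6*) with no filter on low counts and 0 otherwise.

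Same-numbered libraries did not deviate together (mean correlation of deviations -0.01 over 15 pairs, range -0.20 to 0.23). With the replicate block, 4 members were called on chow and 3 on the HFS diet, *C8b* being lost (edgeR adjusted p = 0.070), and with the numbering of the file names 3 and 3, *C8a* being lost on chow (0.056) and *C8b* on the HFS diet (0.067).

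Over all genes, the 632 calls on chow (402 lower) became 3000 (315 lower) with library totals, 1507 unfiltered, 233 with only the groups compared, 1115 with DESeq2 and 69 to 762 with 1 library left out. The 543 on the HFS diet (287 lower) became 1483 (195 lower), 1438 and 987 with totals, no filter and DESeq2, and 184 to 662 with 1 library left out. The 57 and 8 diet calls in Xbp1fl/fl and Xbp1LKO became 499 and 722 unfiltered and 175 and 210 with DESeq2; the 8 became 19 and 53 with the blocks and 0 with only the groups compared, and 1 library left out gave 6 to 59 and 0 to 36. The 0 interaction calls, with 816 genes at an unadjusted p under 0.05, became 269 unfiltered and 31 with DESeq2. The 1582 averaged calls became 5802 with totals and 846 to 1735 with 1 library left out. The cause was not tested. Of 72 recomputed levels per kilobase 27 moved by over 1 standard deviation.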
